A study of Homo sapiens with 18 samples.

Results

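The S100 proteins described here were 10 of the genes on a bead array, S100A2, S100A3, S100A4, S100A6, S100A10, S100A11, S100A13, S100A14, S100A16 and S100P. They were taken as every row of the table of unnormalised intensities whose target name is 1 of these symbols, which gave 17 probes of 48803. The array carried 10 further S100 genes, which are given only for comparison. The cells were HK-2, a line of human kidney proximal tubule epithelium, of passages 18 to 30. All 6 groups had been held in medium with 5 mM glucose for 48 h and starved of serum overnight before any agonist was added, and each group had 3 flasks with 1 array per flask. The groups were untreated cells at 48 h, untreated cells at 18 h, cells with transforming growth factor beta 1 (TGF-beta1, 2 ng/ml) for 48 h, cells with C-peptide (5 nM) for 48 h, cells with C-peptide (5 nM) for 18 h, and cells with both agents for 48 h. C-peptide is the fragment cut out of proinsulin when insulin is made, and TGF-beta1 is a growth factor that drives fibrosis and loss of epithelial traits in kidney tubules. The free-text notes of TGF-beta1 replicates 2 and 3 number the growth factor differently, and the titles, which name TGF-beta alike for all replicates, decided their group. All flasks were of 1 cell line and nothing in the labels ties them to separate thaws or days, so the p-values measure the spread between flasks.

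S100 proteins are small calcium-binding proteins with EF-hands, the helix-loop-helix fold that holds a calcium ion. They mostly pair into dimers, and on binding calcium they expose a surface that grips partner proteins such as annexins, myosin heavy chains and p53. Some leave the cell and act on the receptor AGER. In the kidney S100A4 is widely used as a marker of fibroblasts and of epithelial cells that lose their epithelial character, and S100A10 pairs with annexin A2 beneath the plasma membrane, where it carries ion channels to the cell surface and holds plasminogen. Most genes of the family lie in a cluster on the long arm of chromosome 1, and S100P lies on chromosome 4.

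A probe was counted as detected on an array when its detection p was under 0.01, and probes detected on 3 or more of the 18 arrays were tested. The arrays had a mean signal of 215.9 to 343.7 intensity units, 14580 to 15818 detected probes each, and a median of 40 to 42 beads per probe. The growth factor response was present, since PMEPA1, a target of TGF-beta signalling, rose by 2.42 on the log2 scale (limma, adjusted p = 4.94e-13). CDH1, E-cadherin, was detected on 3 of 3 control arrays at 48 h and on 1 of 3 with TGF-beta1, and its difference of -3.06 (limma, adjusted p = 2.68e-11) includes arrays not above background. Of 18 proximal tubule markers 8 were detected, and LRP2, CUBN and AQP1, which define that segment, were detected on 0 arrays. All 6 epithelial markers were detected, and their summed unnormalised intensity was 21937 to 23429 on the control arrays at 48 h and 12630 to 13419 with TGF-beta1. The 6 did not move alike. At an adjusted p under 0.05 in limma, 1 rose and 4 fell, where 21.9% of all genes rose and 23.2% fell. Of 7 fibroblast markers 4 were detected, summing to 2140.0 to 2308 in those controls and 2222 to 2592 with TGF-beta1, while COL3A1, THY1 and FAP were detected on 0 arrays. Of 10 leukocyte markers 2 were detected, CD68 and CSF1R, and PTPRC was detected on 0 arrays. The part of these shifts in the results below was not tested. The array numbers run consecutively through 3 sets of 6 arrays, in which set 1 holds the 48 h control and TGF-beta1 arrays, set 2 the 48 h C-peptide arrays with and without TGF-beta1, and set 3 both 18 h groups. Comparisons of TGF-beta1 and of C-peptide at 18 h therefore lie within a set, whereas at 48 h the C-peptide arrays are a set of their own, and the agent cannot be told apart from the set.

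Of the 10 genes, 8 were detected on all 18 arrays and were tested. S100A14, an epithelial family member, and S100P, first found in placenta, were detected on 0 arrays, with intensities of -7.0 to 12.8 for S100A14 and -12.2 to -0.2 for S100P, and neither has a level or a change in these data. Of the 10 other S100 genes, S100A1 was detected on 17 arrays at 24.8 to 54.3 intensity units, and S100A5, S100A7, S100A7A, S100A8, S100A9, S100A12, S100B, S100G and S100Z were detected on 0 arrays. S100A8, S100A9 and S100A12 are the calgranulins of neutrophils and monocytes.

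With TGF-beta1 for 48 h, the level of 6 of the 8 measured genes rose, that of 0 fell, and 2 missed the threshold of an adjusted p under 0.05. S100A2 rose by 2.24-fold, S100A16, S100A3, S100A11 and S100A13 by 1.36 to 1.47-fold, and S100A10 by 1.26-fold. S100A4 and S100A6 did not pass. Each gene is counted here by its brightest probe, and for S100A13 another probe fell, so that its direction depends on the probe. The background was large, since 45.1% of the 12468 genes tested passed in either direction, 21.9% of them upwards and 23.2% downwards. The median change of the 8 genes was 0.49 on the log2 scale against -0.01 over all genes, and the arrays of the groups did not overlap for 6 of the 8, against 58.5% of all genes. Each array averages the RNA of a whole flask, so a change in every cell and a change in some cells cannot be told apart. All changes below are differences between group means of normalised log2 intensity, with the standard error (SE) and the adjusted p of a limma fit to all 18 arrays.

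**Figure D1:**
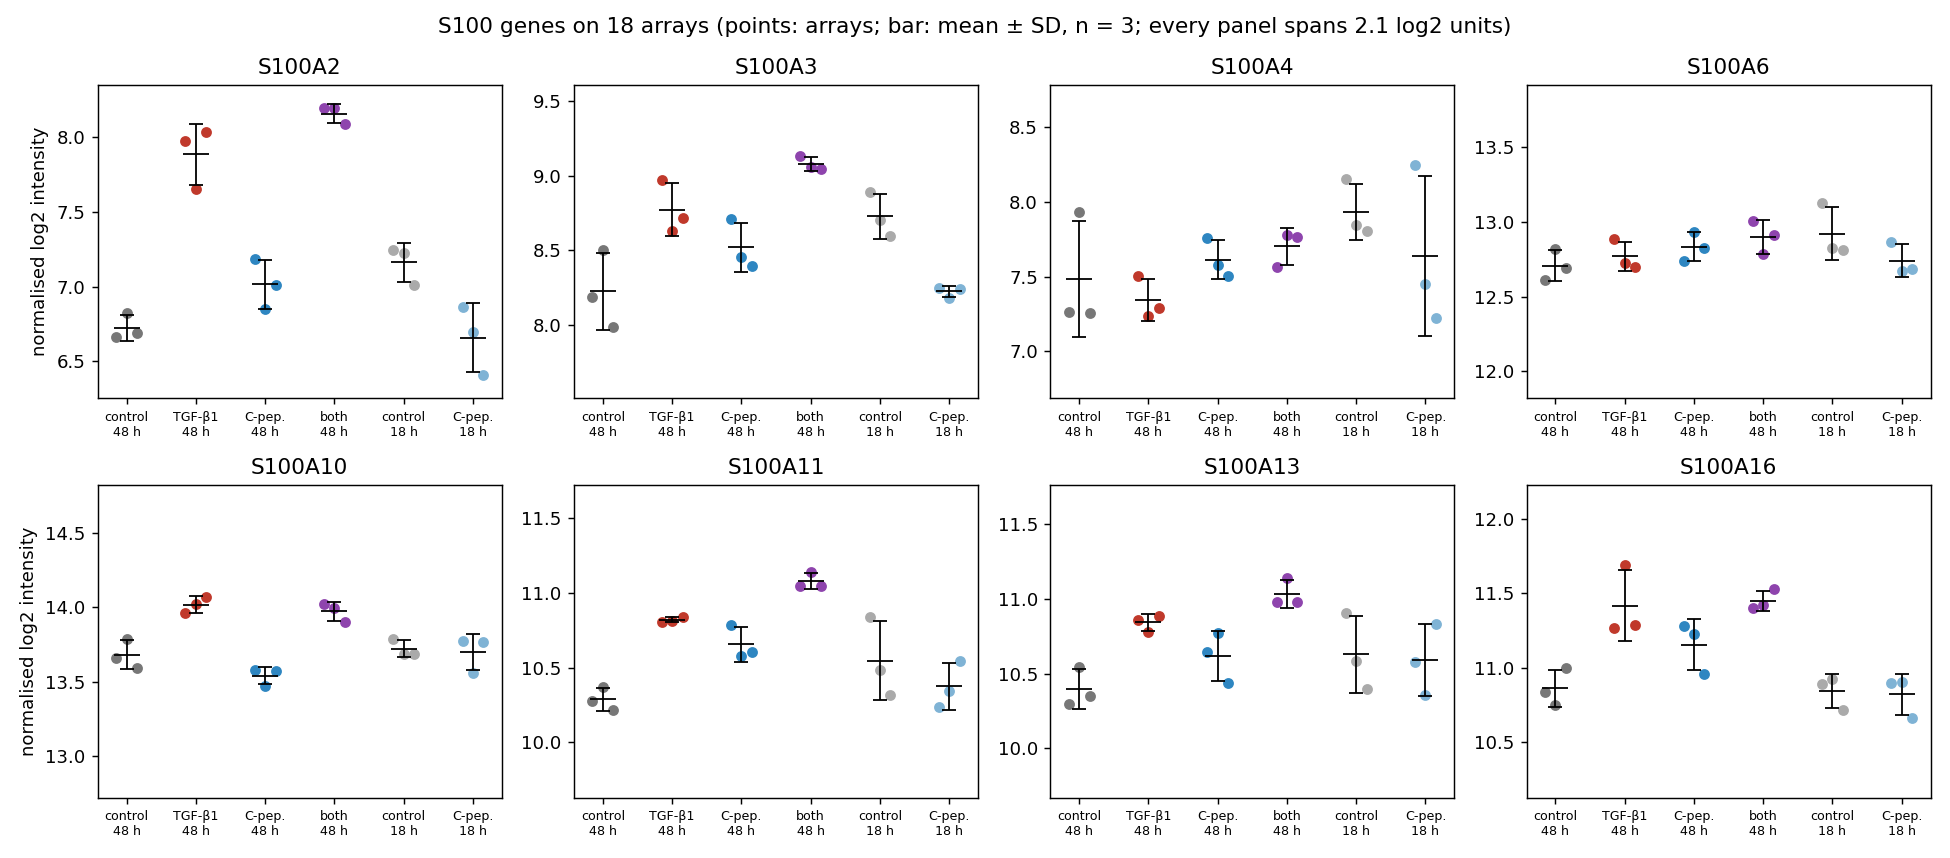
Normalised log2 intensity of the 8 measured S100 genes on every array, in 6 groups of 3, with the group mean and SD as a bar. Each panel spans the same number of log2 units around its own gene. The TGF-beta1 arrays of S100A2, from 7.65 to 8.03, lie above all 48 h control arrays, from 6.66 to 6.82, while those of S100A4 lie among the controls.

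S100A2, a family member of epithelial cells that binds p53, had normalised log2 intensities of 6.66, 6.82 and 6.69 on the 48 h control arrays and 7.97, 7.65 and 8.03 on the TGF-beta1 arrays. All 3 TGF-beta1 arrays lay above all 3 controls, with a gap wider than the range within either group. The means were 6.72 ± 0.09 and 7.89 ± 0.20 (SD, n = 3). S100A2 rose by 1.16 on the log2 scale (SE 0.13, 95% confidence interval 0.90 to 1.43, adjusted p = 2.29e-07). In the deposited intensities, before any normalisation here, this was 110.0 ± 4.28 units in controls and 258.8 ± 29.0 units with TGF-beta1 (SD, n = 3). Among cells that had C-peptide as well, the arrays read 8.20, 8.20 and 8.09 against 7.18, 6.85 and 7.01 with C-peptide alone, again with no overlap, and the rise was 1.15 (adjusted p = 3.07e-07).

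S100A3, a zinc and calcium-binding protein best known from the hair cuticle, read 8.19, 8.50 and 7.99 on the control arrays and 8.97, 8.63 and 8.72 with TGF-beta1. Control replicate 2 was the highest control and lay just below the lowest TGF-beta1 array. S100A3 rose by 0.55 (SE 0.12, adjusted p = 0.00101). With C-peptide present it read 8.71, 8.46 and 8.40 without TGF-beta1 and 9.13, 9.06 and 9.05 with it, and rose by 0.56 (adjusted p = 0.000887). Across the 18 arrays S100A2 and S100A3 had a Pearson correlation of 0.89, which is a description of arrays that share their groups and normalisation.

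The promoter windows of S100A2, S100A3 and S100A4 are shown because the first 2 genes rose while S100A4, their neighbour on the chromosome, did not pass. Each window runs from 250 bases before to 50 after the annotated start, on the minus strand of RefSeq build GRCh38.p14, and is written 5′ to 3′ in lower case. Capitals mark the AP-1 letters TGANTCA and the TATA box letters TATAAA, searched on both strands. The windows are chr1:153565795-153566094 for the first of 2 S100A2 starts, chr1:153549209-153549508 for S100A3 and chr1:153545757-153546056 for S100A4.
S100A2: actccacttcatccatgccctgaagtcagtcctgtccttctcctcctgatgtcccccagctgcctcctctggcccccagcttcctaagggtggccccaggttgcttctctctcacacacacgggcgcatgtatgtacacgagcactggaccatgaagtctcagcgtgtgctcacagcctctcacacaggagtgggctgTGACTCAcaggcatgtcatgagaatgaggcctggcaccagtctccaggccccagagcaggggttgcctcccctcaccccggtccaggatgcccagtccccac
S100A3: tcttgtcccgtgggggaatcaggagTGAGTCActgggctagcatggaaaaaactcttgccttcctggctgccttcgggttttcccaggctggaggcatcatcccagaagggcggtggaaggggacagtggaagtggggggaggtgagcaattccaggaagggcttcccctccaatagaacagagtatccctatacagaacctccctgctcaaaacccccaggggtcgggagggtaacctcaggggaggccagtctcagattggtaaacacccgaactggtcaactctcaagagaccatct
S100A4: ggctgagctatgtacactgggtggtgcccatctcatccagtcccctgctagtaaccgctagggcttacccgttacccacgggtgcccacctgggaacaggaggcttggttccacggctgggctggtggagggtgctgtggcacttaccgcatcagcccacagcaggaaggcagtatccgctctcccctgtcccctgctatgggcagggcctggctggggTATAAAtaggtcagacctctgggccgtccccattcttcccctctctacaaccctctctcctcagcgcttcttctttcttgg
The AP-1 letters begin 52 bases before the start of S100A2 and 225 bases before that of S100A3, and the TATA letters begin 31 bases before that of S100A4. AP-1 is the dimer of FOS and JUN family factors. Among the 10 S100 genes, which have 14 windows in the table, the AP-1 letters stood in these 2 genes alone, and over all genes with a window 9.37% held them. TATAAA stood in windows of S100A4, S100A13 and S100P, and in 11.5% of all 35116 windows. CAGGTG, the E-box that ZEB and SNAI factors bind, stood in windows of 5 of the 10 genes, against 24.1% of all genes. GTCTAGAC, the SMAD palindrome, stood in 0 windows of the 10 genes and in 0.202% of all windows. These are matches of letters in a reference sequence, chosen for search with the expression values known, and no binding was measured.

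S100A4, known in the kidney as fibroblast-specific protein 1, has 2 probes on the array. The brighter read 7.26, 7.93 and 7.26 on the 48 h control arrays and 7.50, 7.23 and 7.29 with TGF-beta1. Control replicate 2 stood apart from the other 2 controls and above all TGF-beta1 arrays, and the remaining values were intermixed. The second probe gave the same picture, with 7.08, 7.75 and 7.08 in controls and 7.30, 6.90 and 7.14 with TGF-beta1, and the correlation of the 2 probes over 18 arrays was 0.95. S100A4 changed by -0.14 (95% confidence interval -0.56 to 0.28, adjusted p = 0.590), so the interval leaves room for a change of 0.677 to 1.21-fold. Without control replicate 2 the value was 0.08 (adjusted p = 0.777). Added to C-peptide, TGF-beta1 gave 0.09 (95% confidence interval -0.33 to 0.51, adjusted p = 0.752).

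S100A6, calcyclin, which binds the ubiquitin ligase adaptor CACYBP, read 12.61, 12.82 and 12.69 in controls and 12.88, 12.73 and 12.70 with TGF-beta1. The 2 groups overlapped. The change was 0.06 (95% confidence interval -0.13 to 0.25, adjusted p = 0.598), which bounds it between 0.916 and 1.19-fold. With C-peptide present it was 0.07 (95% confidence interval -0.12 to 0.26).

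S100A10, the annexin A2 partner that has lost the ability to bind calcium, read 13.66, 13.79 and 13.60 in controls and 13.96, 14.02 and 14.07 with TGF-beta1. Every TGF-beta1 array lay above every control. It rose by 0.34 (SE 0.07, adjusted p = 0.000448), and its second probe by 0.37 (adjusted p = 0.00228). In cells given C-peptide the rise was 0.43 (adjusted p = 3.37e-05) and that of the second probe 0.29 (adjusted p = 0.0134). Scaling the arrays to a common median in place of quantile normalisation lowered the change without C-peptide, of 0.34, to 0.17 (adjusted p = 0.209), which ends that call.

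S100A11, which binds annexin A1, read 10.28, 10.37 and 10.21 in controls and 10.81, 10.81 and 10.84 with TGF-beta1. The 3 treated arrays lay within 0.03 of each other and well above every control. S100A11 rose by 0.53 (SE 0.11, adjusted p = 0.000365). With C-peptide present it read 10.79, 10.57 and 10.60 against 11.04, 11.14 and 11.05 with both agents, and rose by 0.42 (adjusted p = 0.00306). RefSeq lists 10 pseudogenes of S100A11, and whether its single probe also matches their transcripts could not be checked without the probe sequence.

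S100A16, a widely expressed member of the family, read 10.84, 10.75 and 11.00 in controls and 11.27, 11.69 and 11.29 with TGF-beta1. Replicate 2 was the high array of the treated group, and the groups did not overlap. S100A16 rose by 0.55 (SE 0.11, adjusted p = 0.000400). With C-peptide present the arrays read 11.28, 11.22 and 10.96 without TGF-beta1 and 11.40, 11.42 and 11.53 with it. The rise there was 0.29 (adjusted p = 0.0376), and that call was lost without a filter on dim probes (adjusted p = 0.0779) and on leaving out C-peptide replicate 3 or any single array with both agents, with adjusted p from 0.0576 to 0.200.

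**Figure D2:**
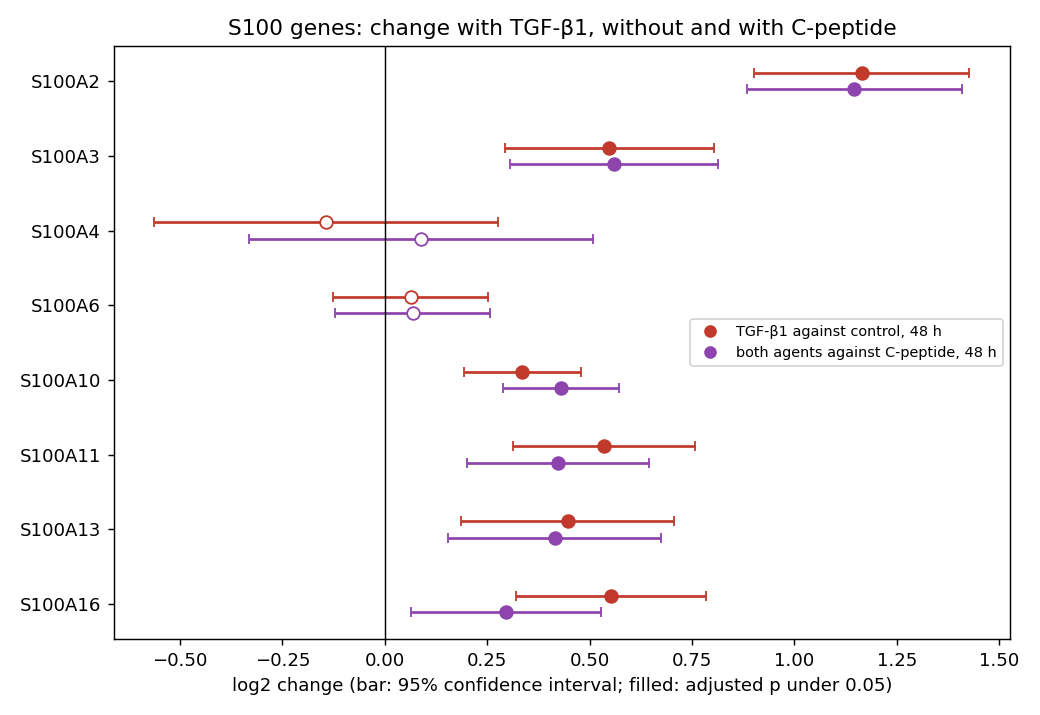
Log2 change with TGF-beta1 at 48 h for the 8 measured S100 genes, against control (red) and, in cells that all had C-peptide, against C-peptide alone (purple), with 95% confidence intervals. Filled points have an adjusted p under 0.05. The same 6 genes are filled in both, from 0.34 for S100A10 to 1.16 for S100A2 without C-peptide, and the intervals of S100A4 and S100A6 span 0.

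In cells that all received C-peptide, TGF-beta1 again raised 6 of the 8 genes, S100A2, S100A3, S100A10, S100A11, S100A13 and S100A16, with 0 lower by the same brightest probes, and again with another S100A13 probe that fell, against 43.0% of all genes called in either direction, 21.3% called upwards and 21.7% downwards. The arrays of the groups did not overlap for 6 of the 8, against 55.4% of all genes. This comparison shares no array with the one above. All 6 genes were called upwards in both, while over all genes 4419 were called in the same direction in both, 78.6% of those called without C-peptide and 82.5% of those called with it. The interaction, which is the difference between the 2 TGF-beta1 changes, was called for 0 of the 8 genes and for 0% of all genes (limma, adjusted p = 0.999 for all 8, and 0 of the 8 with an unadjusted p under 0.05). Its largest size was -0.26 for S100A16 (95% confidence interval -0.59 to 0.07), and for S100A2 it was -0.02 (-0.39 to 0.35). These intervals do not show that the responses were alike.

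S100A13, which helps FGF1 and interleukin 1 alpha leave the cell by a route that bypasses the secretory pathway, has 6 probes on the array, and they did not move together. The brightest, ILMN_1765459, read 10.29, 10.55 and 10.35 in controls and 10.86, 10.78 and 10.89 with TGF-beta1, and rose by 0.45 (SE 0.12, adjusted p = 0.00622). A second, ILMN_2407168, read 9.49, 9.58 and 9.30 in controls and 9.72, 9.73 and 9.94 with TGF-beta1, and rose by 0.34 (adjusted p = 0.0401 over all probes). Another probe, ILMN_1814799, read 8.69, 8.82 and 8.65 in controls and 7.93, 7.86 and 7.91 with TGF-beta1. Its treated arrays lay far below every control, opposite to the other 2 probes, whose treated arrays all lay above the controls. It fell by 0.82 on the log2 scale (adjusted p = 1.29e-05), which is 0.566-fold. In deposited intensity its 48 h control arrays gave 517.0, 509.9 and 446.8 units and its TGF-beta1 arrays 257.4, 264.5 and 259.4 units.

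With C-peptide present, ILMN_1814799 read 8.92, 8.84 and 8.92 without TGF-beta1 and 8.06, 8.38 and 8.27 with it, and fell by 0.66 (adjusted p = 0.000166). There ILMN_1765459 rose by 0.41 (adjusted p = 0.0104 over all probes) and ILMN_2407168 changed by 0.26 (adjusted p = 0.126). The fall passed the test in all 17 of its alternatives without C-peptide and all 17 with it, and the rise of ILMN_1765459 in 17 and 15 of them. The rise of ILMN_2407168 passed in 11 of the 17 without C-peptide, with an adjusted p of up to 0.167, and in 1 of the 17 with it. The 17 include leaving out each 48 h array in turn. Leaving out an array that is not in a comparison keeps its log2 change and alters only the estimate of the spread. Over all probes tested, 44.4% were called for TGF-beta1, 22.6% upwards and 21.8% downwards, and in cells with C-peptide 42.3% in either direction. The remaining 3 probes were dim, with ILMN_1738707 and ILMN_1667138 detected on 0 arrays and ILMN_1782142 on 4.

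Within each array, the log2 ratio of ILMN_1814799 to ILMN_1765459 ranged from -1.72 to -1.60 in 48 h controls, from -1.93 to -1.52 with C-peptide, from -2.98 to -2.92 with TGF-beta1 and from -2.92 to -2.71 with both agents. Averaged over cells without and with C-peptide, the change of this ratio with TGF-beta1 was -1.17, and that of the ratio to ILMN_2407168 was -1.04. In an exact two-sided permutation test that exchanged TGF-beta1 labels within the array sets, both had p = 0.005, the smallest that its 400 regroupings allow, and both stayed at 0.005 after adjustment over the 2 ratios. The ratio was tested after the opposite directions had been seen. A ratio shows unequal change of the probes, not which one stands for the gene. Among 3092 genes with at least 2 tested probes, 31 (1.00%) had probes called in opposite directions for TGF-beta1. S100A13 had more than 2 tested probes, which gives more room for opposite calls, and this share was not matched for that. Which transcripts each probe matches could not be checked without the probe sequences.

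RefSeq has 3 start windows for S100A13, of which the first 2 are shown because the probes of this gene disagree, at chr1:153634312-153634611 and chr1:153627456-153627755 of GRCh38.p14, minus strand, with TATAAA in capitals.
S100A13, first start: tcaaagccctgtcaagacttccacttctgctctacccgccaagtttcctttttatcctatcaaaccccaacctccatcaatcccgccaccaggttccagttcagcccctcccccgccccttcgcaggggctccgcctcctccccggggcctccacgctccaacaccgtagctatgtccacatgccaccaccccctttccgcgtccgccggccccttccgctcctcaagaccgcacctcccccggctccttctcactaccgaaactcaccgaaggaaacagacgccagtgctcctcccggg
S100A13, second start: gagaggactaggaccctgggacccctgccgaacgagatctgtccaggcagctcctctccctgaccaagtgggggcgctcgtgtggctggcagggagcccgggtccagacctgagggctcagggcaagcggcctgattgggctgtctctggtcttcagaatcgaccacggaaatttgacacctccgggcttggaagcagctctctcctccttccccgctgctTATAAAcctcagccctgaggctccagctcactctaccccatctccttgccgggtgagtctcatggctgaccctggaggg
The TATA letters begin 29 bases before the second start and are not in the first window. S100A1 lies within the span of S100A13 on the opposite strand in RefSeq. S100A1, a calcium sensor of heart and muscle, changed by 0.06 with TGF-beta1 (adjusted p = 0.803) at its low intensity.

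**Figure D3:**
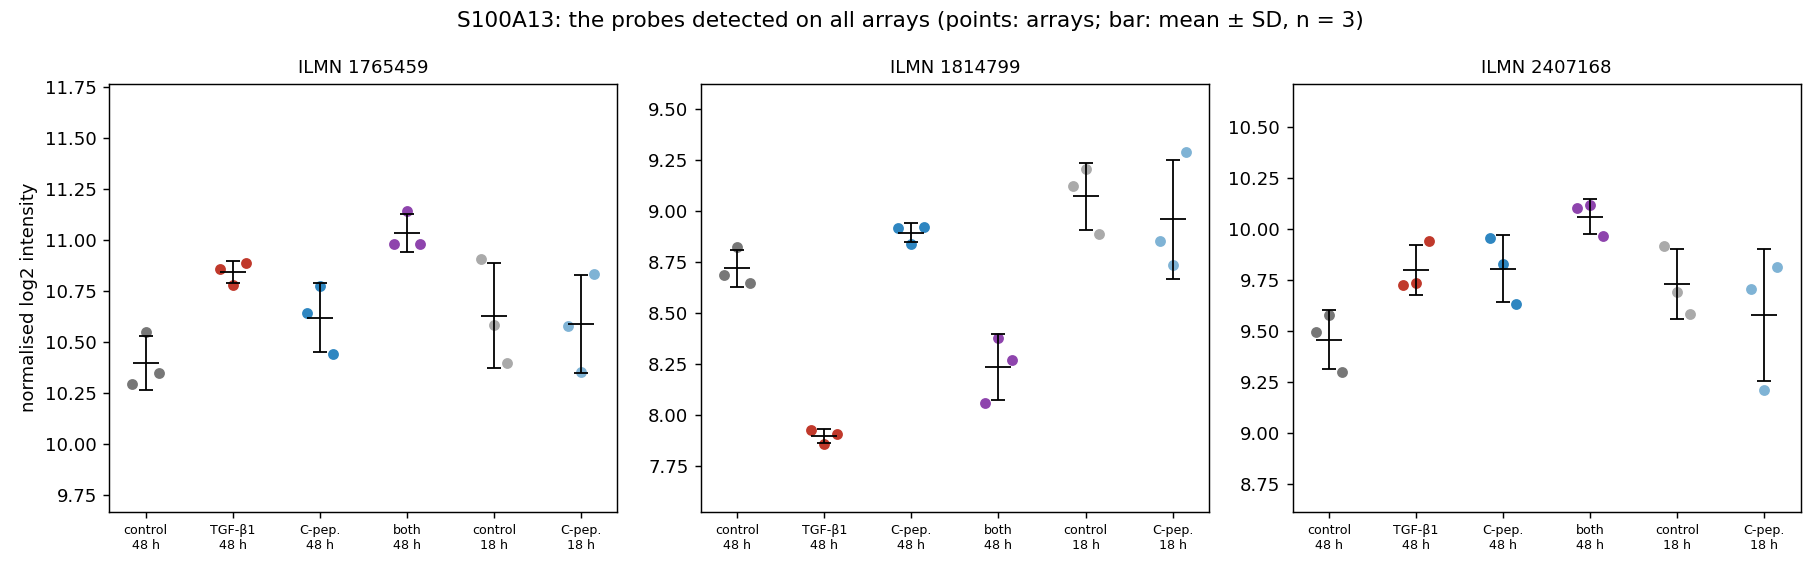
Normalised log2 intensity of the 3 S100A13 probes that were detected on all 18 arrays, by group, with group mean and SD (n = 3). With TGF-beta1 the middle probe, ILMN_1814799, drops from between 8.65 and 8.82 in controls to between 7.86 and 7.93, while the probes on either side lie higher than in controls.

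C-peptide gave few calls among the S100 genes. At 48 h, 1 of the 8 genes passed, S100A11, which was higher by 0.37 (adjusted p = 0.0480), against 5.32% of all genes called and 3.82% called upwards. In normalised values its C-peptide arrays at 10.57 to 10.79 all lay above the controls at 10.21 to 10.37. In deposited intensity the S100A11 groups overlapped, with 1657.4, 1401.2 and 1590.5 units against 1590.2, 1519.3 and 1353.4 units in controls. The groups did not overlap for 3 of the 8 genes, S100A2 and S100A11 with higher C-peptide arrays and S100A10 with lower ones, against 31.5% of all genes in either direction. For S100A10 this holds for the brightest probe, at -0.14. Its second probe gave 0.09 (adjusted p = 0.578 over all probes) with overlapping groups. The call of S100A11 was lost with median scaling (0.14, adjusted p = 0.434), without a filter on dim probes (adjusted p = 0.0779) and on leaving out any single array of the 2 groups (adjusted p from 0.0514 to 0.263). The agent cannot be told apart from the array set in this comparison. The next in size were S100A3 at 0.30, S100A16 at 0.29 and S100A2 at 0.29, with adjusted p of 0.156, 0.123 and 0.174. In deposited intensity S100A2 read 113.8 ± 16.3 units with C-peptide and 110.0 ± 4.28 units in controls (SD, n = 3). The mean signal over all probes was 261.2 to 280.7 on those C-peptide arrays and 307.3 to 343.7 on the controls, and its part in the normalised difference was not tested.

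C-peptide added to TGF-beta1 called 0 of the 8 genes in the limma fit, against 2.15% of all genes called. Of the 8, 3 had an unadjusted p under 0.05, and the share of all genes at that unadjusted threshold was not counted. The largest difference was 0.36 for S100A4 (95% confidence interval -0.06 to 0.78, adjusted p = 0.347), followed by 0.31 for S100A3 and 0.27 for S100A2 (adjusted p = 0.183 and 0.247). With median scaling these were 0.08, 0.05 and 0.007. Deposited means went the other way, being lower with both agents than with TGF-beta1 alone. They were 166.0 against 172.0 units for S100A4, 470.7 against 494.4 for S100A3 and 237.7 against 258.8 for S100A2. The groups did not overlap for 5 of the 8 genes, against 28.6% of all genes, and this comparison too crosses the array sets.

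At 18 h C-peptide went with lower S100A2 and S100A3. S100A2 read 7.25, 7.23 and 7.01 on the control arrays and 6.86, 6.70 and 6.41 with C-peptide. S100A3 read 8.89, 8.70 and 8.59 in controls and 8.25, 8.18 and 8.24 with C-peptide. For both genes every C-peptide array lay below every control in these normalised values. In deposited intensity the S100A2 groups overlapped, at 59.1 to 95.2 units with C-peptide and 93.9 to 118.3 units in controls, while those of S100A3 did not. S100A2 fell by 0.51 (SE 0.13, adjusted p = 0.0431) and S100A3 by 0.50 (SE 0.12, adjusted p = 0.0388). These were 2 of the 8 genes, with 0 higher, where 2.29% of all genes were called and 1.15% called downwards, and the groups did not overlap for the same 2, against 19.3% of all genes. Both calls were lost when only the 2 groups were fitted (adjusted p = 0.365 for each), with median scaling (adjusted p = 0.139 and 0.125), and on leaving out control replicate 1 or 2 or C-peptide replicate 2 or 3 (adjusted p from 0.0535 to 0.234). Over all genes 286 were called in the main fit, 0 with only the 2 groups fitted and 513 with median scaling. Without control replicate 1 or 2 the counts were 0 and 1, and without C-peptide replicate 2 or 3 they were 322 and 79. The other 6 genes changed by -0.29, for S100A4, to -0.02, with adjusted p of 0.226 or more.

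**Figure D4:**
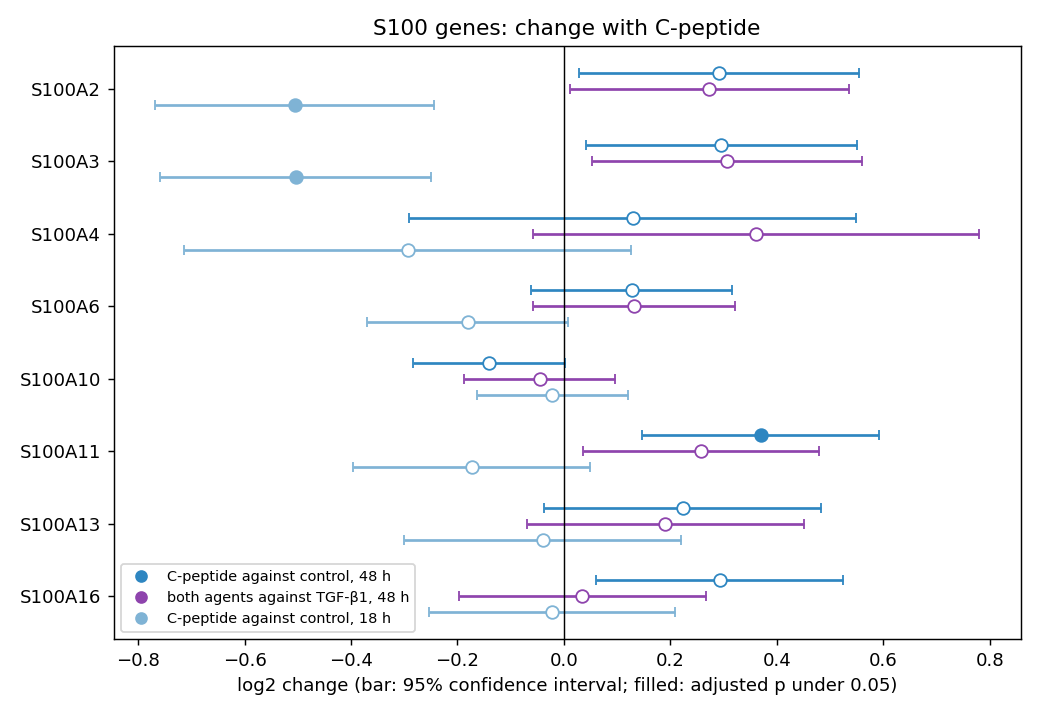
Log2 change with C-peptide for the 8 measured S100 genes against control at 48 h, in cells with TGF-beta1 at 48 h, and against control at 18 h, with 95% confidence intervals. Filled points have an adjusted p under 0.05. They are S100A11 at 48 h (0.37) and S100A2 and S100A3 at 18 h (-0.51 and -0.50).

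Between the untreated groups, 48 h against 18 h, 0 of the 8 genes were called by limma, against 0.00802% of all genes. Of the 8, 5 had an unadjusted p under 0.05. The share of all genes at that unadjusted threshold was not counted. The differences ran from -0.50 for S100A3 (adjusted p = 0.0652) to 0.02 for S100A16, and those of S100A2, S100A4 and S100A11 were -0.44, -0.45 and -0.26. S100A2 and S100A3 had no overlap between the 2 control groups, against 25.8% of all genes. Time and array set cannot be told apart here.

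In their order over the 6 groups, by mean normalised log2 intensity, S100A2 ran from 6.66 (C-peptide 18 h) through 6.72 (control 48 h), 7.01 (C-peptide 48 h), 7.16 (control 18 h) and 7.89 (TGF-beta1) to 8.16 (both agents). The lowest 2 groups of S100A2 overlapped, as did C-peptide 48 h and control 18 h. S100A3 ran from 8.22 in both C-peptide 18 h and control 48 h to 9.08 with both agents, S100A11 from 10.29 (control 48 h) to 11.08 (both agents), S100A13 from 10.40 to 11.03 and S100A16 from 10.82 (C-peptide 18 h) to 11.45 (both agents). All of these values are of the brightest probe of each gene. By that probe the group with both agents was highest for S100A2, S100A3, S100A11, S100A13 and S100A16, and TGF-beta1 alone for S100A10 at 14.02. In deposited intensity TGF-beta1 alone was instead above both agents for S100A2 (258.8 against 237.7 units), S100A3 (494.4 against 470.7) and S100A11 (2110.6 against 2085.9). The same held for S100A13 (2149 against 2019) and S100A16 (3220 against 2729). The groups with and without C-peptide at 48 h lie in different array sets. The 18 h controls were highest for S100A4 at 7.93 and S100A6 at 12.92. Deposited means were instead highest in 48 h controls for S100A4, at 203.3 units, and with TGF-beta1 alone for S100A6, at 7858 units. By normalised values the S100A13 probe ILMN_1814799 was highest in 18 h controls, at 9.07, and stood at 8.23 with both agents. Its deposited mean was highest in 48 h controls, at 491.2 units. The second S100A10 probe was highest with both agents, at 13.42, against 13.41 with TGF-beta1 alone, but its deposited means were 10918 and 11974 units. Between members, by their brightest probes, the correlation over 18 arrays was highest for S100A11 with S100A13, at 0.89. S100A4 had the lowest, from -0.19 with S100A16 upwards. The S100A13 probes ILMN_1765459 and ILMN_1814799 had a correlation of -0.42 with each other.

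The genes whose pattern over the 18 arrays was most like that of S100A2 were RUVBL2, JARID2 and ID3, each with a Pearson correlation of 0.97. For S100A3 they were HOXB2 (0.96), RNASEH2A (0.95) and ADISSP (0.94), for S100A10 KIAA0586 (0.96), RP11-19J3.3 (0.96) and LARS1 (0.95), and for S100A11 CLDN14, LOC644560 and LOC650298 (0.97, 0.96 and 0.96). For S100A13 they were ATP5MF (0.97), BOLA2 (0.95) and LOC643438 (0.94), and for S100A16 LOC401002, ZCCHC24 and C1QL1 (0.93, 0.93 and 0.92). The closest to S100A4 was TRPT1 at 0.85 and to S100A6 RPP21 at 0.83. Each member stands here by its brightest probe. The arrays share groups, so these values describe likeness and carry no test.

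On chromosome 1 the 8 measured genes lie in RefSeq order as S100A10, S100A11, S100A6, S100A4, S100A3, S100A2, S100A16 and S100A13. The span from TUFT1 to TPM3 that holds them has 91 protein-coding genes, of which 28 were tested, 19 of these not S100 genes. Of the 19, 4 rose and 2 fell with TGF-beta1, with a median change of 0.03, where 21.9% of all genes rose and 23.2% fell. In a list of 26 genes beside the cluster, 15 were tested. All 15 are among the 19, and 2 of the 15 rose and 2 fell, against the same shares of all genes. TPM3, a tropomyosin, rose by 0.42 and CHTOP, a chromatin and mRNA export protein, by 0.23 (adjusted p = 3.27e-05 and 0.0225). SLC39A1, a zinc importer, fell by 0.61 (adjusted p = 1.05e-05), and CREB3L4 was at least 1.63-fold lower with TGF-beta1, where it was detected on 0 of 3 arrays against 3 of 3 controls (adjusted p = 0.000487).

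**Figure D5:**
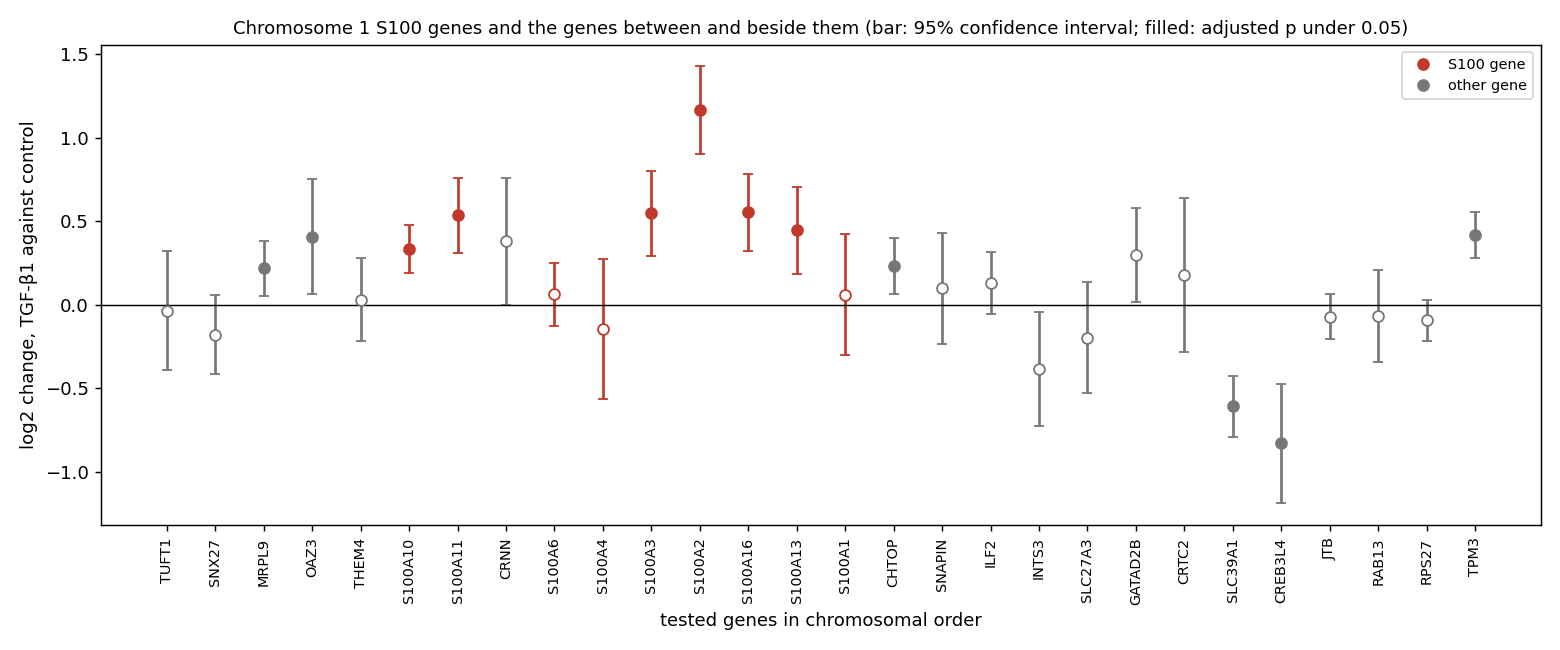
Log2 change with TGF-beta1 against control at 48 h for the tested protein-coding genes from TUFT1 to TPM3, in RefSeq order and evenly spaced, with 95% confidence intervals. Filled points have an adjusted p under 0.05. S100 genes are red, and the filled ones run from 0.34 for S100A10 to 1.16 for S100A2, with S100A6, S100A4 and S100A1 unfilled among them.

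Of 27 known binding partners of S100 proteins, 20 were tested, of which 5 rose and 6 fell with TGF-beta1, with a median of 0.04, where 21.9% of all genes rose and 23.2% fell. AHNAK, a very large scaffold that binds the S100A10 and annexin A2 complex, changed by -1.81 and ANXA1, the annexin that S100A11 binds, by -1.60 (adjusted p = 4.17e-09 and 4.65e-09). KCNK3, a potassium channel that S100A10 escorts to the membrane, rose by 1.38 (adjusted p = 2.61e-07). DLC1, a tumour suppressor that binds S100A10, was at least 3.50-fold higher, detected on 3 of 3 TGF-beta1 arrays and 0 of 3 controls (adjusted p = 8.88e-09). In cells with C-peptide 7 partners rose and 7 fell, where 21.3% of all genes rose and 21.7% fell.

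Of 35 other EF-hand genes, 27 were tested, of which 7 rose and 2 fell with TGF-beta1, with a median of 0.05, where 21.9% of all genes rose and 23.2% fell. CALU, calumenin of the secretory pathway, rose by 0.49, ACTN1, the actin cross-linker alpha-actinin, by 0.45 and CALM3, a calmodulin gene, by 0.37 (adjusted p = 0.000161, 0.00219 and 0.0223). CAPN1, a large subunit of calpain, fell by 0.63 (adjusted p = 0.000376).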

How the data were processed

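Gene expression was measured on Illumina HumanWG-6 version 3 bead arrays, 18 arrays in 6 groups of 3, grouped by sample title. The deposited unnormalised table holds mean bead intensity per probe, exported from GenomeStudio 1.1.1 without normalisation, per the file headers. From 23.4% to 28.1% of the probes on an array were below 0, so a background had been subtracted. Beside each intensity the authors deposited a bead number and a detection fraction, 1 minus the detection p. A second deposited table of the authors' normalised intensity was used as an alternative. Here intensities were background-corrected with the detection p (limma 3.58.1 in R 4.3.3, offset of 16), quantile normalised and put on the log2 scale. Probes detected on at least 3 arrays were kept and a gene was represented by its brightest probe on average, giving 12468 genes from 16322 probes. Names were brought to current RefSeq symbols for 5138 probes, 22068 already had one and 21597 kept the table's name. Group means were fitted with limma (trended eBayes, 12 residual degrees of freedom), with Benjamini-Hochberg adjustment over all genes, or over all probes where single probes are named, and a threshold of 0.05. Tests are two-sided. The fit was tested on simulated data. Where a gene was detected on no array of a group, the fold is a lower bound against the dimmest detected signal. Alternatives were the normalisation, background step, filter, probe rule, array weights, replicate block, groups fitted, and each array left out. Named genes were all members, up to 4 called genes with the largest change per list, the 3 most alike genes per member, and response checks. The members and lists were chosen with earlier results of these data known. The number of arrays limits the precision. The slide of each array is not given in the sources used here.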

Additional observations from a re-analysis of the deposited data

Results flagged for a closer look

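The C-peptide change at 48 h minus that at 18 h differed from 0 in a limma fit for 3 of the 8 genes, where 8.92% of all genes were called. This comparison was added after the values had been seen. For S100A2 the difference was 0.80 on the log2 scale (95% confidence interval 0.43 to 1.17, adjusted p = 0.0160). In normalised values its 48 h arrays with C-peptide all lay above their controls and its 18 h arrays all below theirs. Groups did not overlap for 31.5% of all genes at 48 h and 19.3% at 18 h, and the share on opposite sides was not counted. In deposited intensity the S100A2 groups overlapped at both times. They read 95.3 to 125.9 units against 105.1 to 112.8 in controls at 48 h, and 59.1 to 95.2 against 93.9 to 118.3 at 18 h. For S100A3 the difference was 0.80 (95% confidence interval 0.44 to 1.16, adjusted p = 0.0137) and for S100A11 0.54 (95% confidence interval 0.23 to 0.86, adjusted p = 0.0328). Of 17 alternatives each, the call held in 14 for S100A2, 15 for S100A3 and 8 for S100A11. With median scaling the differences were 0.48, 0.43 and 0.21 (adjusted p = 0.0845, 0.101 and 0.435). Without 18 h control replicate 1 all 3 calls were lost, with adjusted p of 0.0566, 0.0524 and 0.0985, and without 48 h C-peptide replicate 1 those of S100A2 and S100A11 (0.0567 and 0.0999). The call of S100A11 was further lost with only the 4 groups fitted (0.0868) and without 48 h control replicates 1 or 3, 18 h control replicate 2, or 18 h C-peptide replicates 1 or 2 (0.0519 to 0.0810). The 48 h side of the difference crosses the array sets, so the agent and the set cannot be told apart.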

How the results depend on the processing

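Over 10 settings and the removal of each array, 944 values of single genes were recomputed. Of these 889 kept their side of the threshold, 31 lost a call, 21 gained one and 3 reversed. Reversed means a change of sign with a call in at least 1 of the 2 fits. The sign changed in 51 of the 944, and apart from the 3 these had no call in either fit. The count of genes called for TGF-beta1 was 6 without any 1 array and 5 to 6 in the other settings, and with C-peptide present 4 to 6 and 5 to 6. Averaging all probes of a gene turned S100A13 to -0.057 (adjusted p = 0.681) and, with C-peptide present, to -0.025 (adjusted p = 0.867), since its probes moved in opposite directions. With C-peptide present, the S100A13 call was lost without C-peptide replicate 3 (adjusted p = 0.0666) or replicate 2 of both agents (adjusted p = 0.0526). For C-peptide at 48 h the count of 1 became 0 with median scaling, no filter on dim probes or the replicate block, 6 with array weights, and 0 to 1 without single arrays. Over all genes 663 were called in the main fit, 2334 with median scaling and 3139 with array weights. No filter gave 580, the replicate block 606, and leaving out single arrays 196 to 1008. For C-peptide added to TGF-beta1 the count of 0 became 2 with array weights and 1 with only the groups compared. These settings called 1426 and 855 of all genes, against 268 in the main fit. For C-peptide at 18 h the count of 2 became 0 with median scaling, no filter or only the groups compared, and 0 to 3 without single arrays. Calls over all genes were 513, 17 and 0 in these settings, against 286 in the main fit, and 0 to 1780 without single arrays. For 48 h against 18 h controls the count of 0 became 2 with median scaling, 6 with array weights, 1 with the replicate block, and 0 to 3 without single arrays. Among all genes these settings called 7245, 2917 and 86, against 1 in the main fit, and 0 to 1568 without single arrays. S100A10 turned to 0.28 with median scaling (adjusted p = 0.0275). Except where stated, the cause was not tested. Median scaling moved the median of all genes by -0.06 for TGF-beta1, -0.11 for TGF-beta1 with C-peptide, -0.17 for C-peptide at 48 h, -0.22 for C-peptide added to TGF-beta1, 0.12 for C-peptide at 18 h and 0.36 between the controls. Relative to that median, S100A10 changed by -0.08 between the controls. The replicate numbers gave no clear pairing of the flasks. Same-numbered arrays had residual correlations from -0.34 to 0.28, over 0.1 in 14 of 45 pairs. Of 18 arrays 5 correlated best with their own number. The replicate block called 5572 genes for TGF-beta1 against 5622 without it. It called 547 against 286 for C-peptide at 18 h, and 86 against 1 between the controls. These values do not settle whether flasks were paired. A random block for array set was not run, because each group lies within 1 set.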
